A study of Mus musculus with 8 samples.

Results

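Cholesterol efflux and lipid droplet genes were followed in mouse brain as a set of 9 genes, Abca1, Abcg1, Ch25h, Plin2, Soat1, Nr1h2, Nr1h3, Pparg and Mylip. They are taken by gene name, and each name matched 1 gene among the 54532 listed for PTS + RS and RS and 1 among the 28229 listed for RGFP109 and vehicle. All 9 had enough counts to be tested in both tables, among 17581 and 17565 tested genes.

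RNA-seq covered 8 libraries from male C57BL/6 mice on Day 21, with 2 libraries in each of 4 groups. The PTS + RS mice had a photothrombotic stroke, in which light and a photosensitive dye clot cortical vessels, together with daily spatial restraint stress, and the RS mice had the restraint stress without the stroke. In the second experiment, all mice were PTS + RS mice, given either RGFP109, an inhibitor that the study uses against the histone deacetylase HDAC3 (60 mg/kg under the skin once a day for 2 weeks), or vehicle, which the labels call NaCl. The labels name cortex for every PTS + RS and RS library, and in the second experiment cortex for replicate 1 and amygdala for replicate 2 of each group. All groups share the restraint stress, so no library shows these genes in an unstressed brain. Neither the labels nor the methods say whether a library holds 1 mouse or a pool, so that p-values measure the spread between these libraries only.

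Cells that take up lipid debris, such as phagocytes clearing myelin, must dispose of cholesterol that they cannot break down. ABCA1 and ABCG1 are membrane transporters that hand cholesterol to apolipoprotein particles, SOAT1 esterifies cholesterol for storage, and PLIN2 coats the lipid droplets in which the esters are kept. CH25H makes 25-hydroxycholesterol, an oxysterol that activates the liver X receptors (LXR), which Nr1h3 (LXR alpha) and Nr1h2 (LXR beta) encode. These receptors, paired with a retinoid X receptor, switch on Abca1, Abcg1 and Mylip, a ubiquitin ligase that marks lipoprotein receptors for breakdown. Pparg encodes a further lipid-sensing nuclear receptor, PPAR gamma.

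The promoters of the 3 genes with the largest changes after stroke are shown here, because Abca1 is a known LXR target and the others rose with it. Promoters from RefSeq, from 250 bases before to 50 after the start on GRCm38.p6, were matched for 8 of the 9 genes. The sequences are printed 5′ to 3′ on the strand of the gene, with capitals for every match on either strand to a receptor half-site (AGGTCA), to a relaxed direct repeat (GGTNANNNNNGGTCA), to a GC box (GGGCGG) or to a TATA box (TATAAA). The relaxed repeat was shaped on the known element of Abca1, so its match there is no finding.
Abca1, chr4:53159846-53160145, minus strand: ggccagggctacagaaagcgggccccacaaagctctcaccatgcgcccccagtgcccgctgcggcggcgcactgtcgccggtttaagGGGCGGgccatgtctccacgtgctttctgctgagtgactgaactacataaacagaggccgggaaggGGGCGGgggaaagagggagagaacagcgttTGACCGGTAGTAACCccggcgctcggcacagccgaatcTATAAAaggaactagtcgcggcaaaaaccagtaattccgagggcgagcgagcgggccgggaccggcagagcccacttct
Plin2, chr4:86670010-86670309, minus strand: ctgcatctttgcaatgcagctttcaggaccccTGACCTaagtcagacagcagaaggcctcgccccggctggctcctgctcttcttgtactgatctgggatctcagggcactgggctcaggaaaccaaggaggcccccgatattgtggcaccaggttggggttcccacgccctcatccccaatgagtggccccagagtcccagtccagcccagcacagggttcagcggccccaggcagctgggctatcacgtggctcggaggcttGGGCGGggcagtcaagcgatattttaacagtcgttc
Ch25h, chr19:34475099-34475398, minus strand: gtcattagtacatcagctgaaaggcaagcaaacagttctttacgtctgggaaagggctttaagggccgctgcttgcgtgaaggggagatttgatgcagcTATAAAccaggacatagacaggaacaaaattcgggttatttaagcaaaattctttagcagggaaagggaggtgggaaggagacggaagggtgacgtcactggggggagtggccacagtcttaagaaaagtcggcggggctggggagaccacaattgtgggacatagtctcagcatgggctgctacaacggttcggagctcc

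The Abca1 promoter held the relaxed repeat from -67 to -53, counting the RefSeq start as 0, together with 2 GC boxes and a TATA box at -29. Plin2 held a half-site from -218 to -213 and a GC box just after the start. Ch25h held a TATA sequence at -151 and none of the other motifs. Of 32851 mouse promoters of this length, 0.207% held the relaxed repeat, 16.3% a half-site, 35.7% a GC box and 13.6% a TATA box. The strict direct repeats with 4 bases between the half-sites (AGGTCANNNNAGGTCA, in 0.0152% of promoters) or 1 base (AGGTCANAGGTCA, in 0.0396%) were not found in the windows of the 8 genes. Half-sites also lay in 2 of the 3 Pparg windows, at -28 and -9, and the half-site and the repeats overlap by construction. A match describes letters in this window only.

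The deposited tables place the genes on GRCm38. Abca1 (ENSMUSG00000015243) lies on chromosome 4 from 53030787 to 53159895, Plin2 (ENSMUSG00000028494) on chromosome 4 from 86648386 to 86670060, Ch25h (ENSMUSG00000050370) on chromosome 19 from 34473786 to 34475135, and Soat1 (ENSMUSG00000026600) on chromosome 1 from 156424525 to 156474331. Abcg1 (ENSMUSG00000024030) is on chromosome 17, Nr1h2 (ENSMUSG00000060601) on 7, Nr1h3 (ENSMUSG00000002108) on 2, Pparg (ENSMUSG00000000440) on 6 and Mylip (ENSMUSG00000038175) on 13. Ch25h is a single exon, and in GENCODE M21 it shares 159 exon bases with the noncoding gene Gm26902 on the other strand. Gm26902 had 31 and 20 counts in the PTS + RS libraries and 10 and 7 in the RS libraries, and how the counting used strand is not given in the sources used here, so the Ch25h values are uncertain to that extent. Nr1h3 shares 34 exon bases with Gm13783, which had at most 6 counts in any library.

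Depth was between 15902013 and 21712033 gene counts in each library. Neuronal markers summed to between 6334 and 7885 CPM (counts scaled to library size) in every library, so the tissue carried neuronal RNA throughout. The markers of cerebral cortex were lowest in vehicle replicate 1, at 230.1 CPM against 307 to 553 CPM elsewhere. That library held olfactory bulb markers at 1243 CPM against 15.2 to 24.6 CPM in the other 7. The highest sums of cortex markers were in the libraries labelled amygdala, at 553 CPM (RGFP109 replicate 2) and 495 CPM (vehicle replicate 2). The cortex-labelled libraries held at most 378 CPM. Whether the tissue labels are right was not tested. Amygdala markers were no higher in the libraries labelled amygdala (49.4 and 56.9 CPM) than in the cortex libraries of PTS + RS and RS (69.7 to 86.3 CPM). In the cortex-labelled libraries of the second experiment they were at 81.1 CPM (RGFP109 replicate 1) and 21.7 CPM (vehicle replicate 1). Choroid plexus markers ranged from 14.4 to 3765 CPM and split the PTS + RS libraries into 1599.7 and 45.3 CPM. The RS libraries held 1805 and 3765 CPM, more than either PTS + RS library, and the part of this in the 9 genes was not tested. These markers also split the RGFP109 libraries, with 1499 CPM in replicate 1 and 14.4 CPM in replicate 2. The vehicle libraries held 45.8 and 17.1 CPM. Because of the olfactory bulb markers, the values of the 9 genes for RGFP109 against vehicle are given with and without vehicle replicate 1. Without it, vehicle replicate 2, labelled amygdala, is the lone vehicle library, so treatment and tissue label are then partly mixed.

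Per length, as the deposited FPKM (fragments scaled to gene length and library size) give it, Abcg1 was the highest of the 9 genes in each of the 8 libraries, from 16.4 to 21.1 FPKM. Nr1h2 (12.4 to 17.2 FPKM) and Abca1 (5.15 to 20.0 FPKM) took ranks 2 to 4. Mylip (4.45 to 12.001 FPKM), Soat1 (3.92 to 6.31 FPKM) and Plin2 (1.32 to 7.71 FPKM) followed in order of their medians. These 3 ranges overlap, so their order is not fixed across the libraries. Mylip took ranks 3 to 5 and was above Abca1 in both RS libraries and in RGFP109 replicate 1. Nr1h3 (1.07 to 1.94 FPKM), Ch25h (0.285 to 3.34 FPKM) and Pparg (0.362 to 3.08 FPKM) took ranks 6 to 9, and their ranges overlap with each other and with that of Plin2. In both RS libraries and in RGFP109 replicate 1, Plin2 was below Nr1h3. LXR beta was thus the more abundant of the LXR transcripts in each library.

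**Figure D1:**
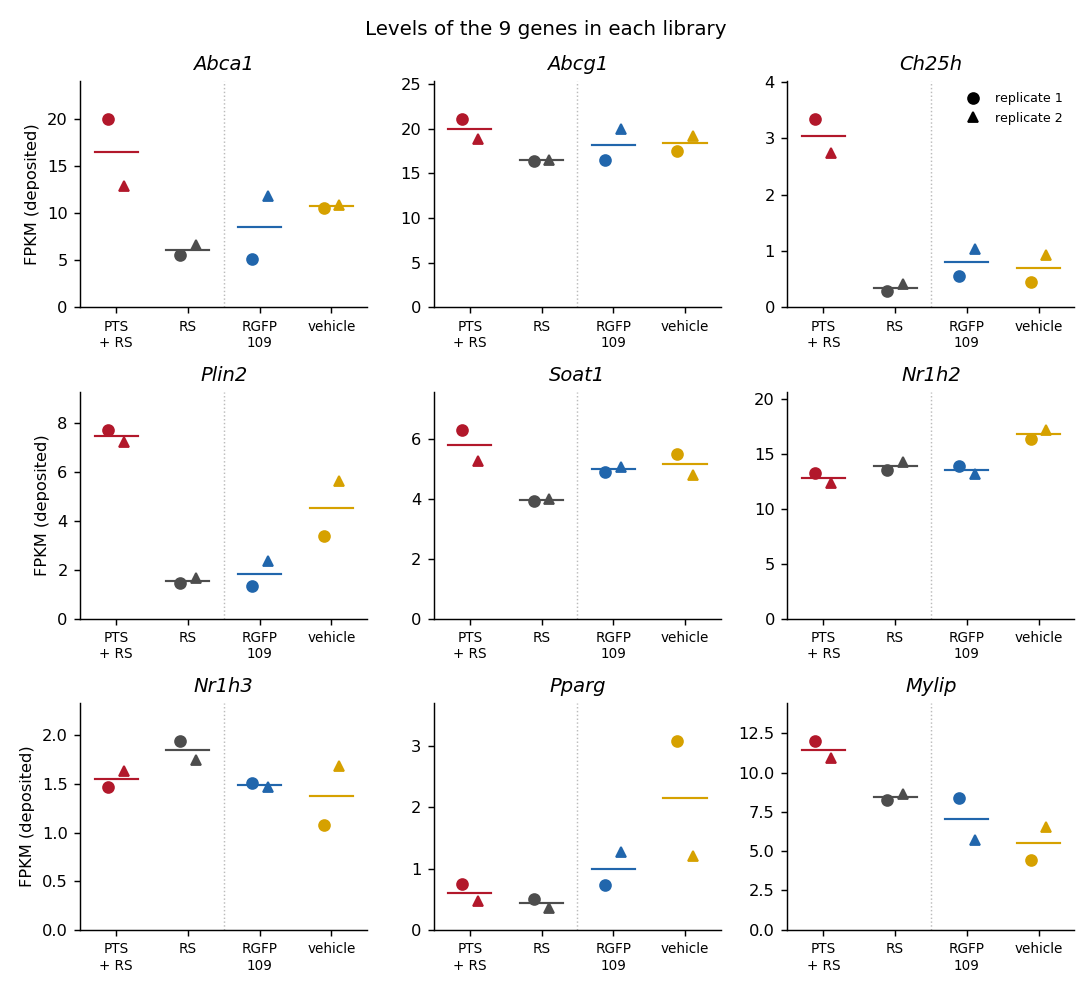
Deposited FPKM of each gene (vertical axis, from 0) in each library, with circles for replicate 1, triangles for replicate 2 and a bar at the group mean. A dotted line separates the tables of the 2 experiments, and Abca1, Ch25h, Plin2 and Soat1 sit higher in both PTS + RS libraries than in both RS libraries.

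The comparison of PTS + RS with RS asked what the stroke adds to restraint stress in the cortex. Abca1, Ch25h, Plin2 and Soat1 rose in PTS + RS, and none of the 9 genes fell. Ch25h had the largest rise (8.62-fold), followed by Plin2 (4.83-fold), Abca1 (2.71-fold) and Soat1 (1.47-fold), while Abcg1, Mylip and the 3 nuclear receptors did not pass the test. In the quasi-likelihood test of edgeR, with p-values adjusted over all tested genes, 4 of 9 (44.4%) passed at an adjusted p under 0.05, all 4 higher, where 3.55% of all tested genes passed and 2.96% passed as higher. Ch25h is 1 of the 4 although it passed the filter on low counts only through the PTS + RS group, and without it 3 of 8 (37.5%) passed. The set was not chosen independently of these data, so the shares describe it and are no test of it. The median log2 fold change was 0.48 over the 9 genes and -0.0015 over all tested genes. In 8 of 9 the libraries of the groups did not overlap, against 50.2% of all tested genes.

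Of the efflux transporters, Abca1 was at 209 and 135 CPM in the PTS + RS libraries and at 58.2 and 68.9 CPM in the RS libraries. Both PTS + RS libraries lay above both RS libraries, although PTS + RS replicate 1 was 1.56-fold above replicate 2. The log2 fold change was 1.44 ± 0.20 (SE, n = 2 libraries in each group), with a 95% interval from 0.96 to 1.91 and an adjusted p of 0.0118 (edgeR). Abcg1, which works alongside ABCA1 on larger particles, was at 86.7 and 77.1 CPM in PTS + RS and at 67.1 and 67.3 CPM in RS. Its groups did not overlap either, but the log2 fold change of 0.28 ± 0.09 (95% interval 0.08 to 0.49) had an adjusted p of 0.146 (edgeR). The intervals of the transporters do not overlap. The Abca1 call was lost without RS replicate 1 (adjusted p = 0.0654, edgeR), and Abcg1 passed without PTS + RS replicate 2 (adjusted p = 0.00631, edgeR).

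Of the enzymes, Ch25h had 78 and 62 counts in the PTS + RS libraries and 7 and 9 counts in the RS libraries, or 4.55 and 3.71 CPM against 0.386 and 0.568 CPM. It was a scarce transcript in RS and passed the filter on low counts only through the PTS + RS group. The log2 fold change was 3.11 ± 0.37 (95% interval 2.24 to 3.97) with an adjusted p of 0.00591 (edgeR), and the adjusted p was 0.0502 without RS replicate 1. Soat1, which stores cholesterol as ester, was at 62.4 and 52.0 CPM in PTS + RS and at 38.6 and 39.4 CPM in RS. These groups did not overlap, and the rise was small, with a log2 fold change of 0.55 ± 0.11 (95% interval 0.29 to 0.81) and an adjusted p of 0.0462 (edgeR). Soat1 no longer passed without RS replicate 1 (adjusted p = 0.284, edgeR), without RS replicate 2 (0.249) or by limma-voom (0.0552).

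Plin2, the droplet coat protein, was at 27.3 and 25.5 CPM in the PTS + RS libraries and at 5.08 and 5.87 CPM in the RS libraries. Its replicates differed by at most 1.16-fold within a group, and the groups lay far apart. The log2 fold change was 2.27 ± 0.15 (95% interval 1.92 to 2.63) with an adjusted p of 0.00066 (edgeR). Plin2 was the only one of the 9 genes that passed without each of the 4 libraries in turn, with adjusted p-values of 0.00676 or less (edgeR).

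Of the nuclear receptor genes in the set, none passed. Nr1h2 was at 45.0 and 41.7 CPM in PTS + RS and at 45.9 and 48.1 CPM in RS, a log2 fold change of -0.12 ± 0.09 (95% interval -0.33 to 0.10). Nr1h3 was at 3.74 and 4.13 CPM in PTS + RS and at 4.91 and 4.42 CPM in RS, a log2 fold change of -0.25 ± 0.22 (95% interval -0.78 to 0.28). Both LXR genes were slightly lower in both PTS + RS libraries, and their adjusted p-values were 0.572 and 0.623 (edgeR). Pparg was at 2.22 and 1.38 CPM in PTS + RS and at 1.49 and 1.07 CPM in RS, so that its groups overlapped (log2 fold change 0.48 ± 0.40, adjusted p = 0.593, edgeR). Its interval, from -0.47 to 1.44, leaves room for changes of either sign at 17 to 38 counts per library.

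Mylip, an LXR target that removes lipoprotein receptors, was at 39.2 and 35.5 CPM in PTS + RS and at 26.8 and 28.0 CPM in RS. The groups did not overlap, and the log2 fold change of 0.45 ± 0.10 (95% interval 0.20 to 0.69) just missed the threshold (adjusted p = 0.0721, edgeR). It passed without PTS + RS replicate 2 (adjusted p = 0.00828, edgeR) and with no filter on low counts (0.0166). With 1 fit over all 8 libraries, in which the groups share the larger spread of the second experiment, none of the 9 passed, and the adjusted p-values of Plin2, Ch25h, Soat1 and Abca1 were 0.136, 0.164, 0.259 and 0.308 (edgeR), with log2 fold changes between 0.53 and 3.08.

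**Figure D2:**
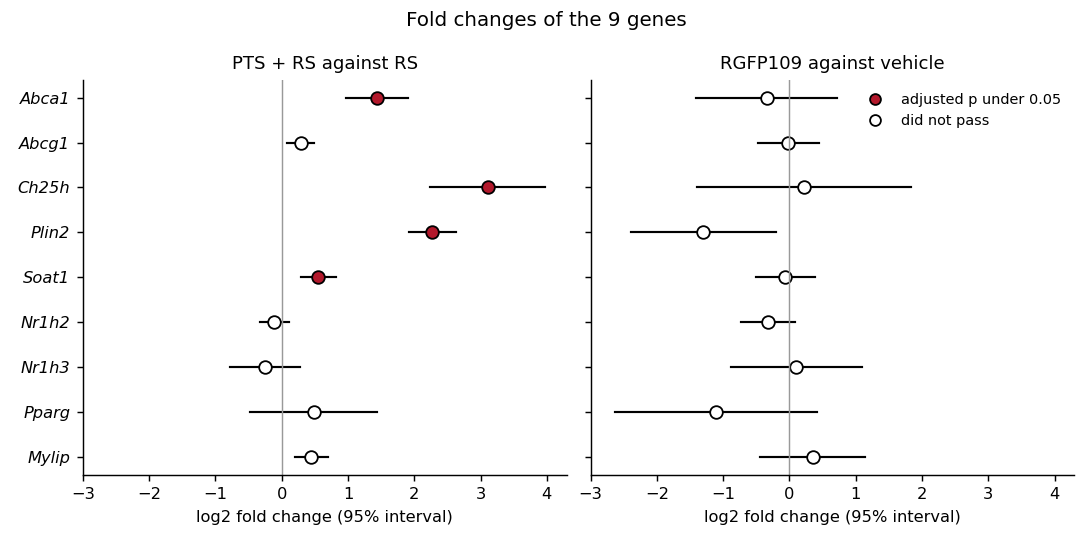
Log2 fold change (horizontal axis) of each gene for PTS + RS over RS (left) and RGFP109 over vehicle (right), with its 95% interval from edgeR. Filled points passed at an adjusted p under 0.05, which 4 genes did on the left and none on the right.

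Microglial markers moved with these genes. All 12 of 12 markers, from Tmem119 and P2ry12 to C1qa and Cd68, rose in PTS + RS, with a median log2 fold change of 2.35, and none was at 0 in any library. Their summed level was 1631 and 1397 CPM in PTS + RS and 356 and 323 CPM in RS. In bulk tissue, more cells of a type and more RNA per cell cannot be told apart. Astrocyte markers rose in 5 of 10 (median 0.48), and their summed level was 6790 to 7977 CPM in PTS + RS and 4629 to 4668 CPM in RS. None of the markers of oligodendrocytes (10 tested, median 0.25), neurons (10, -0.11), endothelial cells (10, 0.24), border macrophages (4, 1.11), choroid plexus (7, -1.86), meningeal fibroblasts (6, 0.01), olfactory bulb (6, 0.11), cerebral cortex (6, 0.003) and amygdala (5, 0.28) passed, by edgeR, and no neutrophil marker had enough counts to be tested. At an unadjusted p under 0.05 there were 5, 1, 3, 3, 4, 0, 1, 1 and 1 genes in these lists, and DESeq2 passed 1 oligodendrocyte and 1 border macrophage marker. The part of the microglial markers in the rise of the 4 genes was not tested.

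Set against the summed microglial markers, the genes separated. Plin2 stood at 1.67 and 1.82 CPM per 100 CPM of microglial markers in PTS + RS and at 1.43 and 1.82 in RS, so that the groups overlapped. Ch25h was higher on this scale in PTS + RS (0.279 and 0.266) than in RS (0.109 and 0.176). Abca1 was lower (12.8 and 9.63 against 16.4 and 21.3), as was Soat1 (3.83 and 3.72 against 10.9 and 12.2). Abcg1, Nr1h2, Nr1h3, Pparg and Mylip were also lower in both PTS + RS libraries. Ch25h alone was thus higher relative to the markers in both PTS + RS libraries. Its RS ratios rest on 7 and 9 counts, and it passed the filter on low counts only through the PTS + RS group. These ratios are a description with no test. A gene that rose less than the summed markers is lower on this scale by arithmetic, whatever cells express it.

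**Figure D3:**
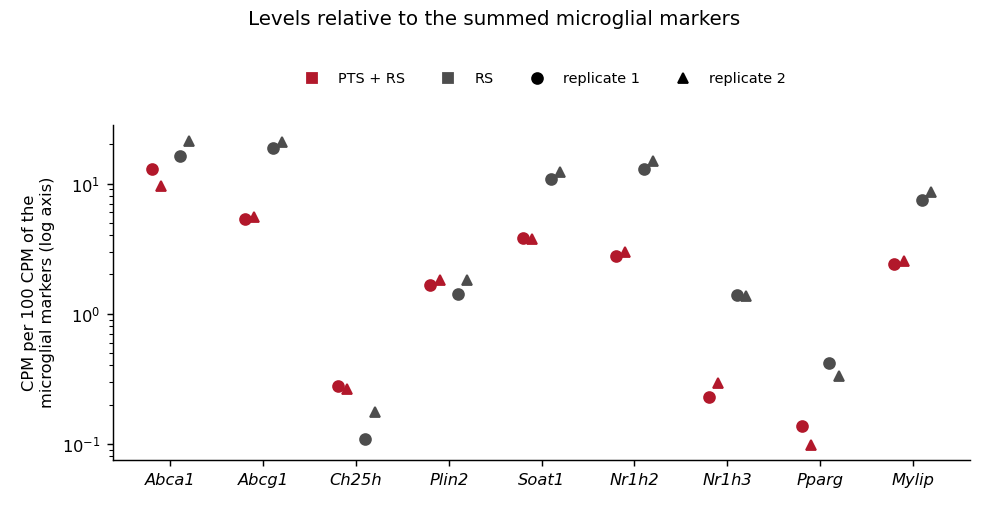
CPM of each gene per 100 CPM of the 12 microglial markers (vertical log axis) in the PTS + RS and RS libraries, with circles for replicate 1 and triangles for replicate 2. Plin2 overlaps between the groups near 1.4 to 1.8, Ch25h is higher in PTS + RS, and the other 7 genes are lower.

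The wider pathway was described by lists of other genes of sterol and neutral lipid handling. Among apolipoproteins and other sterol carriers, 3 of 9 tested genes rose and none fell (DESeq2 also passed 3), with a median log2 fold change of -0.04. Apoe, the main lipid acceptor of brain efflux, was at 3111 and 2370.2 CPM in PTS + RS and at 1224 and 1362 CPM in RS (log2 fold change 1.08 ± 0.15, adjusted p = 0.0119, edgeR). Lpl, a lipase of lipoprotein particles, was at 86.4 and 87.0 CPM against 39.0 and 36.0 CPM (1.21 ± 0.08, adjusted p = 0.00081, edgeR). Lcat, which esterifies cholesterol on those particles, was at 40.7 and 46.7 CPM against 25.4 and 26.1 CPM (0.76 ± 0.11, adjusted p = 0.0129, edgeR). Both acceptor-side genes Apoe and Lcat were lost as calls without RS replicate 1 (adjusted p of 0.196 and 0.127, edgeR) or RS replicate 2 (0.0846 and 0.0897), and Lpl was not.

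Among genes of lipoprotein uptake and lysosomal release, 3 of the 8 described rose by edgeR and 4 by DESeq2. Msr1, a scavenger receptor of macrophages, had 84 and 69 counts in PTS + RS and 4 and 1 counts in RS, and its fitted log2 fold change of 4.88 ± 0.48 (adjusted p = 0.00311, edgeR) rests on those few RS counts. Like Ch25h, Msr1 passed the filter on low counts only through the PTS + RS group, and without it 2 of 7 passed. Cd36, a scavenger receptor for oxidised lipid, was at 3.56 and 4.25 CPM in PTS + RS and at 1.10 and 1.01 CPM in RS (1.88 ± 0.30, adjusted p = 0.0216, edgeR). Npc2, which carries cholesterol out of lysosomes, was the remaining gene that rose (0.72 ± 0.12, adjusted p = 0.0229, edgeR). Without RS replicate 1, the adjusted p of Cd36 and Npc2 was 0.142 and 0.181, and without RS replicate 2 it was 0.142 and 0.0598 (edgeR).

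The droplet machinery other than Plin2 showed no such calls. None of 9 tested genes of lipid droplet coat and assembly passed (median -0.07), and Dgat2, which makes triglyceride and was the highest of them, was at 66.5 and 84.4 CPM in PTS + RS and at 83.8 and 82.8 CPM in RS. None passed of 6 genes of neutral lipid hydrolysis (median 0.07, Mgll 0.02 ± 0.08), of 9 nuclear receptor partners and coregulators (median 0.04, Ncor1 0.004 ± 0.077), of 5 oxysterol enzymes and other LXR targets (median 0.26, Cyp46a1 -0.02 ± 0.08) or of 4 PPAR targets (median 0.20, Cpt1a 0.11 ± 0.16). Values in parentheses are log2 fold changes, with SE for the gene with the highest level in each list. In these 5 lists, edgeR had 1 receptor partner and 1 oxysterol gene at an unadjusted p under 0.05 and 0 others, and DESeq2 passed 0. At an adjusted p under 0.05 in edgeR, the passing genes of the wider pathway therefore lay in the lists of sterol carriers and of uptake.

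**Figure D4:**
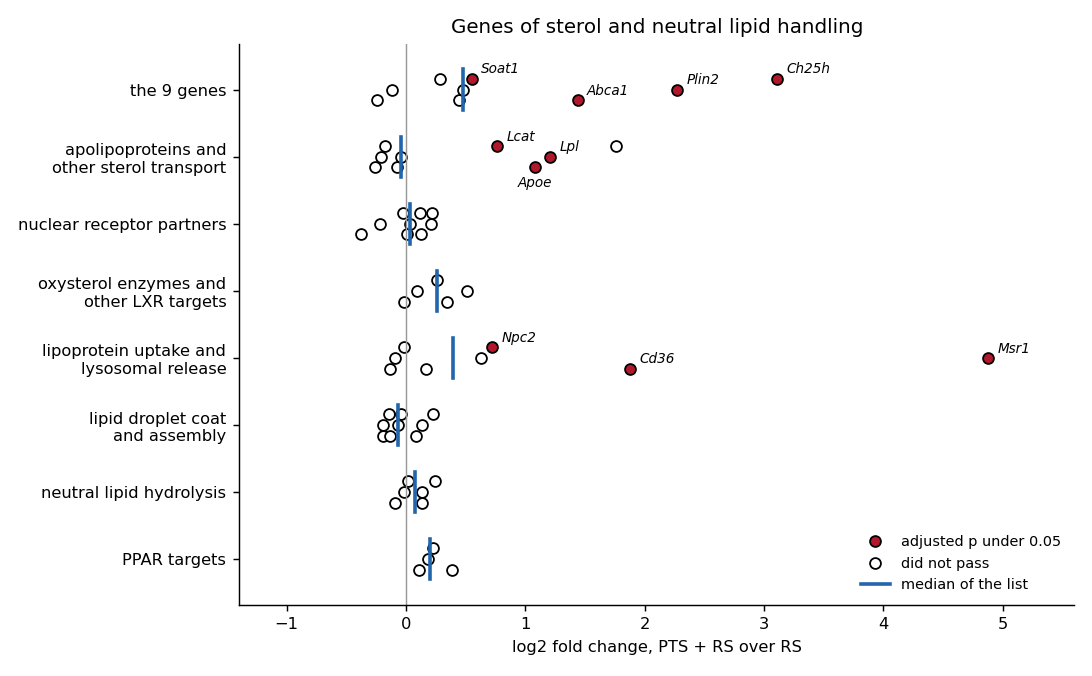
Log2 fold change for PTS + RS over RS (horizontal axis) of the genes described in the 9-gene set and in 7 further lists (rows), with the median of the plotted genes as a bar. Filled, named points passed at an adjusted p under 0.05. The named points lie in the 9-gene set and in the lists of sterol carriers and of uptake.

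The comparison of RGFP109 with vehicle asked what the inhibitor changes in PTS + RS mice. None of the 9 genes passed (edgeR, 0% of all tested genes passed, with 206 of 17565 at an unadjusted p under 0.05), and DESeq2 and limma-voom also passed 0 genes. The difference that stood out among the 9 was Plin2, the only one with an unadjusted p under 0.05 (0.0284, edgeR). In 2 of 9 (22.2%), Plin2 and Nr1h2, the libraries of the groups did not overlap, against 26.6% of all tested genes. The median log2 fold change was -0.06 over the 9 genes and -0.016 over all tested genes.

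Plin2 was at 4.63 and 8.27 CPM in the RGFP109 libraries and at 12.002 and 19.8 CPM in the vehicle libraries, replicate 1 first. Both RGFP109 libraries were lower than both vehicle libraries, and the spread within each group was 1.65-fold or more. The log2 fold change was -1.30 ± 0.42 (95% interval -2.39 to -0.21) with an adjusted p of 0.9997 (edgeR). Within the replicate numbers the log2 ratio was -1.35 in replicate 1 and -1.25 in replicate 2, and 0.336% of all tested genes had both ratios at -1 or below. That limit was chosen after the Plin2 values were seen, so the share is no test of Plin2. Without vehicle replicate 1, which held the olfactory bulb markers, the log2 fold change was -1.62. That fit keeps only the amygdala-labelled vehicle library, and Plin2 was higher in the amygdala-labelled library of each group. Treatment and tissue label are therefore partly mixed in the value of -1.62. The summed microglial markers were 423 and 642 CPM with RGFP109 and 330 and 754 CPM with vehicle. Of these markers, 0 of 12 had even an unadjusted p under 0.05 (median log2 fold change -0.10, edgeR), nor did any pass by DESeq2. Without vehicle replicate 1, the median log2 fold change of the microglial markers was -0.58. The part of the microglial markers in the Plin2 values was not tested.

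The FPKM of Plin2 can be set beside those of the first experiment, although the tables were normalized separately and the groups of different experiments were not tested against each other. The tissues also differ, since PTS + RS and RS are labelled cortex, replicate 2 of RGFP109 and of vehicle is labelled amygdala, and vehicle replicate 1 held the olfactory bulb markers, so the values stand side by side only. The RGFP109 libraries (1.32 and 2.36 FPKM) lay near the RS libraries (1.44 and 1.66 FPKM). The vehicle libraries (3.38 and 5.63 FPKM) lay between these and the PTS + RS libraries (7.71 and 7.22 FPKM). Ch25h did not show this order, with 0.458 and 0.923 FPKM in vehicle, 0.563 and 1.04 FPKM with RGFP109 and 3.34 and 2.74 FPKM in PTS + RS. The vehicle mice were PTS + RS mice as well, yet both genes were lower in both vehicle libraries than in both PTS + RS libraries. Summed microglial markers were 330 and 754 CPM with vehicle, 1631 and 1397 CPM in PTS + RS and 356 and 323 CPM in RS. Whether RGFP109 has a part in the Plin2 order was not tested.

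Abca1 was at 53.5 and 123 CPM with RGFP109 and at 111 and 113 CPM with vehicle. RGFP109 replicate 1 was low and the other 3 lay between 111 and 123 CPM. The log2 ratios were -1.05 in replicate 1 and 0.12 in replicate 2 (log2 fold change -0.34 ± 0.41). RGFP109 replicate 1 also held choroid plexus markers at 1499 CPM, and their part in the Abca1 value was not tested. Pparg was at 2.16 and 3.74 CPM with RGFP109 and at 9.22 and 3.59 CPM with vehicle. Vehicle replicate 1 stood above the other 3 libraries, with log2 ratios of -2.04 in replicate 1 and 0.06 in replicate 2, and the Pparg log2 fold change of -1.11 ± 0.59 became -0.28 without that library. Whether the tissue content of vehicle replicate 1 has a part in the Pparg value was not tested.

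Without vehicle replicate 1, the log2 fold changes of Abca1 and Nr1h2 were -0.36 each, that of Mylip, which was lowest in that library, was 0.093, and those of Ch25h, Nr1h3, Soat1 and Abcg1 were -0.20, -0.18, 0.041 and -0.085. Nr1h2 was at 46.9 and 44.1 CPM with RGFP109 and at 55.7 and 58.0 CPM with vehicle, a log2 fold change of -0.32 ± 0.16 (95% interval -0.73 to 0.09). The groups did not overlap, with log2 ratios of -0.25 and -0.39. Mylip differed in sign between the replicate numbers (0.89 and -0.20), as did Nr1h3 (0.46 and -0.19), and no gene of the 9 had ratios of opposite sign that were both at least 0.5 in size, as 3.47% of all tested genes had. The remaining log2 fold changes were 0.35 ± 0.31 for Mylip, 0.21 ± 0.62 for Ch25h, 0.10 ± 0.38 for Nr1h3, -0.06 ± 0.17 for Soat1 and -0.02 ± 0.18 for Abcg1. In each of the 7 further lists of sterol and lipid genes, 0 genes passed (edgeR), and 0 by DESeq2, with 1 oxysterol gene at an unadjusted p under 0.05 and medians, over the 6 other than uptake, from -0.64 for PPAR targets to 0.13 for lipid droplet coat and assembly. Without vehicle replicate 1, which was chosen after the data were seen for these lists, 0 genes passed, and the medians of those lists were -0.46 and 0.040. The median over the 9 genes was then -0.20.

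**Figure D5:**
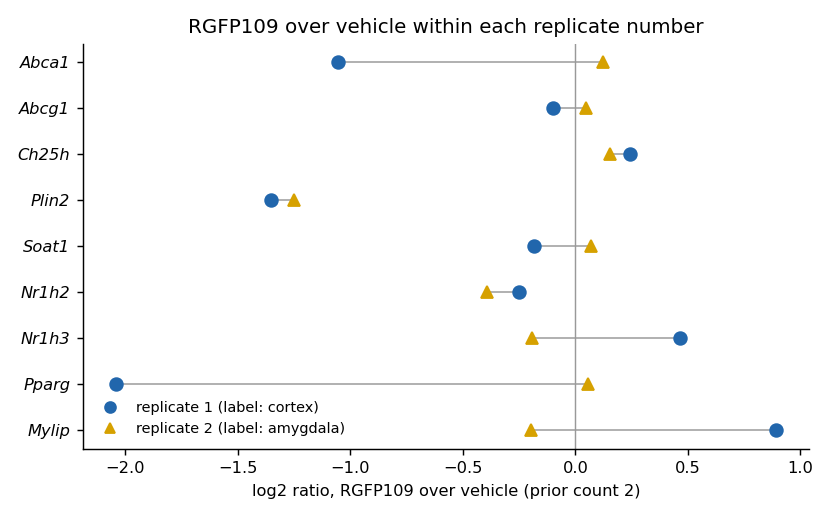
Log2 ratio of RGFP109 over vehicle (horizontal axis) of each gene within replicate 1 (circles, labelled cortex) and replicate 2 (triangles, labelled amygdala), joined by a line. Plin2 lies at -1.35 and -1.25, and Pparg and Abca1 are low in replicate 1 only.

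The same 4 libraries allow the amygdala-labelled and the cortex-labelled to be compared. The sums of cortex and amygdala markers did not follow these labels, which are used here as given. None of the 9 genes passed (edgeR, 0% of all tested genes passed, with 1970 of 17565 at an unadjusted p under 0.05). Of the 9 genes, 0 had an unadjusted p under 0.05. In 3 of 9 (33.3%), Abca1, Abcg1 and Ch25h, the groups did not overlap, against 44% of all tested genes. Ch25h was at 1.40 and 1.25 CPM in the amygdala-labelled libraries and at 0.761 and 0.626 CPM in the cortex-labelled libraries (log2 fold change 0.93 ± 0.40, adjusted p = 0.487, edgeR). The other differences were 0.75 ± 0.62 for Plin2, 0.52 ± 0.36 for Abca1, 0.28 ± 0.31 for Nr1h3, 0.19 ± 0.13 for Abcg1 and -0.64 ± 0.69 for Pparg, and those of Soat1, Nr1h2 and Mylip were -0.08 ± 0.14, -0.01 ± 0.20 and -0.07 ± 0.33. A fit without vehicle replicate 1 leaves RGFP109 replicate 1 as the lone cortex-labelled library and assumes that it varies like the others. That library held choroid plexus markers at 1499 CPM. The amygdala-labelled side holds an RGFP109 and a vehicle library, so tissue label and treatment are partly mixed. The log2 fold changes were 1.15 for Abca1 and 1.61 for Plin2. Plin2 was at 4.63 CPM in the lone library, 8.27 CPM in RGFP109 replicate 2 and 19.8 CPM in vehicle replicate 2. This fit was added after the data were seen, and in it Pparg turned to 0.78. Microglial markers were higher in 11 of 12 in the amygdala-labelled libraries (median log2 fold change 1.14), with 9 at an unadjusted p under 0.05 and 0 that passed (edgeR).

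Across the 8 libraries, the genes fell into patterns that are given as descriptions, since the libraries share 4 groups and 2 experiments. Abca1 went with Abcg1 (r = 0.94), Plin2 (r = 0.90) and Ch25h (r = 0.84), on the log2 CPM scale. Pparg went against Nr1h3 and Mylip (r = -0.83 for each), where vehicle replicate 1 is the highest library for Pparg and the lowest for both others. Among 16911 genes, the closest to Ch25h were Nfam1 (r = 0.998), Lair1 (0.993) and AU020206 (0.990), and the closest to Plin2 were Tmem176b (0.985), Tcirg1 (0.978) and Necap2 (0.976). The closest to Abca1 were Asf1b, H2-Q4 and Gm10226 (0.976, 0.975 and 0.971), and those closest to Soat1 were Ifit3, Selenon and Igfbp5 (0.995, 0.980 and 0.976).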

How the data were processed

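RNA-seq of 8 mouse brain libraries (2 each of PTS + RS, RS, RGFP109 and vehicle) was used. Per the paper's methods and the processing notes, the authors aligned reads to GRCm38 with STAR 2.4.0 and counted them with HTSeq 0.6.1, and deposited raw counts per gene and library. The deposited FPKM values are those counts scaled by the authors to gene length and library. The labels and the methods name different library kits, and the strand setting of the counting is not given in the sources used here. The deposited fold changes, p-values and group means were not used, nor were 8 columns of normalized values per library.

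Genes were filtered with filterByExpr, normalized by TMM within each table and compared by the quasi-likelihood test of edgeR 4.0.16 (R 4.3.3) with Benjamini-Hochberg adjustment over all tested genes. A gene passed at an adjusted p under 0.05. CPM are TMM-scaled, SE is the log2 fold change over the square root of F, and ratios within replicate numbers used a prior count of 2. Promoter windows came from RefSeq, and gene models from GENCODE M21. The script was tested on simulated data. Alternatives were another normalization, no filter, a fold limit, DESeq2 1.42.0, limma-voom (limma 3.58.1), a replicate block, 1 fit over 8 libraries and leaving out each library (for the tissue labels only vehicle replicate 1, added after the data were seen).

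The 9 genes, the lists and the marker lists were chosen with earlier results of these data known. Named from each list were every gene that passed, or the 3 largest changes where more passed, or otherwise the gene with the highest level. Npc2, a gene of the uptake list, was named, and the per-library olfactory bulb sums were added, after their values were seen. In the list of lipoprotein uptake and lysosomal release, 2 genes are not reported here and were left out of the counts and the plotted median after their values were seen, so no median is given for that list in the text. Depth was 15902013 to 21712033 counts, and replicates differed by more than sampling noise, with correlations of log CPM of 0.982 (PTS + RS), 0.990 (RS), 0.966 (RGFP109) and 0.943 (vehicle), so the spread between libraries limits precision.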

Additional observations from a re-analysis of the deposited data

How the results depend on the processing

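Over the alternatives, 78 of 90 values for the 9 genes in PTS + RS against RS kept their direction and their side of the threshold, 9 lost the call, 3 gained one and 0 changed sign. The number of genes that passed was 624, and it was 616 with size factors, 785 with DESeq2, 525 with limma-voom, 389 with a fold limit, 1835 with no filter and 0 in 1 fit over all 8 libraries (1439 at an unadjusted p under 0.05, edgeR). The shared spread of that fit (24.5%, as a coefficient of variation) compares with 11.4% for the first table alone. Leaving out 1 library gave 216 to 2866 genes. The count was 216 without RS replicate 1, 250 when RS replicate 2 was dropped, and 1703 and 2866 when PTS + RS replicate 1 and 2 were dropped. Of the 9 genes, 4 passed, 0 in the fit over all 8 libraries, and 1 to 6 when 1 library was left out, the 1 without RS replicate 1. For RGFP109 against vehicle, 0 genes passed, and 0 to 8 when 1 library was left out, with 8 lower genes, none of the 9, without vehicle replicate 2.

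Leaving out 1 library changed the sign for RGFP109 against vehicle of Abca1 (log2 fold change -1.06 to 0.13, positive at 0.13 without RGFP109 replicate 1), Abcg1 (-0.16 to 0.11, positive at 0.11 without RGFP109 replicate 1 and 0.05 without vehicle replicate 2), Ch25h (-0.30 to 0.81, negative at -0.30 without RGFP109 replicate 2 and -0.20 without vehicle replicate 1), Soat1 (-0.15 to 0.041, positive at 0.041 without vehicle replicate 1) and Nr1h3 (-0.18 to 0.46, negative at -0.18 without vehicle replicate 1). Plin2 stayed negative under each alternative, from -1.78 to -0.88. The cause of these changes was not tested. With the replicate block, 915 of 17581 tested genes and 4 of the 9 passed in PTS + RS against RS, and 0 and 0 in RGFP109 against vehicle. Libraries with the same number deviated together with r = 0.035 in the first table and r = 0.30 in the second, where the number is also the tissue label. For the amygdala-labelled against the cortex-labelled libraries, 0 genes and 0 of the 9 passed with size factors and with the treatment group as a block. Without vehicle replicate 1, chosen after seeing the data, 2374 genes and 2 of the 9 passed, and the log2 fold changes of Soat1, Nr1h2 and Pparg changed sign to 0.024, 0.13 and 0.78. The lowest counts of the 9 genes were 7 and 9, for Ch25h in RS.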

Other observations

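In vehicle replicate 1, where the olfactory bulb markers were high, Lpl was at 2.39 CPM, against 38.0 CPM in vehicle replicate 2 and 32.0 and 27.8 CPM with RGFP109, and Lcat was at 43.7 CPM against 16.6, 23.3 and 15.3 CPM. These genes were singled out after their values were seen.

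In vehicle replicate 2, Apoe (3282 CPM), Msr1 (59 counts), Cd36 (5.55 CPM) and Plin2 (19.8 CPM) were each higher than in vehicle replicate 1 (1738 CPM, 5 counts, 0.910 CPM and 12.002 CPM). The RGFP109 libraries had 1464 and 1993 CPM of Apoe, 13 and 19 counts of Msr1 and 1.84 and 2.06 CPM of Cd36. Between vehicle replicate 2 and vehicle replicate 1, the summed markers were also higher for microglia (754 against 330 CPM), border macrophages (42.8 against 19.7 CPM) and meningeal fibroblasts (253 against 100.3 CPM), and olfactory bulb markers were lower (24.6 against 1243 CPM). Replicate 2 is labelled amygdala and replicate 1 cortex, and the part of these in the values was not tested.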
